A study of Mus musculus with 2 samples.

Results

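The collagen genes of the developing mouse eye are described here, taken as every gene whose symbol is Col, a number, the letter a and a number. The rule found 44 of the 31053 genes in the deposited counts. Of these, 43 had at least 1 UMI (unique molecular identifier, the tag that marks 1 captured transcript) in the kept cells, 36 had 100 or more, 7 had 1 to 99, and *Col6a5* had none, which allows up to 3 UMIs in each library. The study asks what the transcription factor gene *Myrf* does in the retinal pigment epithelium (RPE), and the cells came from eye cups of e13.5 embryos, with cornea, lens and optic nerve removed. The control library held 3 pooled *Myrf fl/fl* samples, in which both alleles of *Myrf* are floxed and no Cre is present. The mutant library held 3 pooled *Rx>cre Myrf fl/fl* samples, which carry the same floxed alleles and a Cre recombinase driven from *Rx*, a gene of the eye field. Retina and RPE descend from the eye field, whereas periocular mesenchyme, vessels and blood do not. As each genotype had 1 library, nothing could be tested, and the 95% intervals given with values express the error of counting and nothing else.

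A collagen is a trimer of polypeptide chains with a glycine at the start of each repeat, and each *Col* gene encodes 1 chain. Fibrillar collagens form the cables of sclera, cornea and choroid stroma, network collagens form basement membranes and the hexagonal lattices of Bruch's and Descemet's membranes, and FACIT collagens, such as type IX of the vitreous, sit on the surface of fibrils. Bruch's membrane lies between the RPE and the choroidal capillaries, and both tissues contribute to it.

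After filtering, 5451 control and 6309 mutant cells remained, with medians of 11331 and 11160 UMIs per cell. Collagen UMIs numbered 86086 in the kept control cells and 91715 in the kept mutant cells. Barcodes found in both libraries numbered 72, of which 67 were kept in each. Without them no summary value given here moved beyond its counting interval except the mesenchyme share of collagen UMIs, which became 63.9% in control and 70.3% in mutant. Cells were clustered with the collagens left out of the variable features and clusters were named from markers that include no collagen, so the classes did not rest on the genes described. Levels are CPM, the UMIs of a gene over all cells of a class, scaled to 1000000 UMIs of that class. The libraries were taken to hold about 1 tag per transcript, so levels of different genes are set side by side without scaling by length.

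The class labels were checked against their markers. Mesenchyme-like cells (1453 control, 1923 mutant) held *Pdgfra* at 90.4 and 93.6 CPM, *Prrx1* at 201 and 214 and *Twist1* at 583 and 614. RPE-like cells (252 control, 154 mutant) held *Pmel* at 6303 and 4980 CPM, *Ttr* at 2432 and 768 and *Rlbp1* at 483 and 280, while the late markers *Rpe65*, *Lrat* and *Rgr* had 0 UMIs, which allows up to 3 in each library. The pericyte-like cluster (139 control, 151 mutant) is named with reserve, because it held *Pdgfrb* at 193 and 132 CPM but *Rgs5* at only 8.1 and 16.2, *Higd1b* had 0 UMIs (up to 3 allowed), and the mesenchyme markers summed to 643 and 695 CPM against 267 and 233 for the pericyte markers. *Myrf* itself stood at 74.1 CPM (155 UMIs) in control and 20.1 CPM (30 UMIs) in mutant RPE-like cells, and in no other class above 6.68 CPM. Its 3' tags may lie outside the floxed part, so this level checks the labels only in part.

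Promoters are shown for 5 chains whose levels set the RPE, the vessels and the neural retina apart, each over 250 bases before and 50 bases after the RefSeq start site on GRCm38.p6 and printed 5' to 3' along the gene, with the start site at base 251. *Col8a1* and *Col4a4* were the short chain and network genes concentrated in RPE-like cells, *Col4a1* and *Col4a2* the shared network pair, and *Col9a1* the leading collagen of retinal progenitors, with 2 start sites 17593 bases apart. Capitals mark matches on either strand to GGGCGG (GC box) or CCAAT, and none of the other motifs searched was found in these 6 windows. *Col8a1* is at chr16:57754688-57754987, minus strand, with 4 GC boxes. *Col4a4* is at chr1:82586800-82587099, minus strand, with no match. *Col4a1* is at chr8:11312777-11313076, minus strand, and *Col4a2* at chr8:11312555-11312854, plus strand, so that these windows share 78 bases and the start sites are 21 bases apart. *Col9a1* is at chr1:24177360-24177659 for the upstream and chr1:24194953-24195252 for the downstream start, both on the plus strand.
*Col8a1*: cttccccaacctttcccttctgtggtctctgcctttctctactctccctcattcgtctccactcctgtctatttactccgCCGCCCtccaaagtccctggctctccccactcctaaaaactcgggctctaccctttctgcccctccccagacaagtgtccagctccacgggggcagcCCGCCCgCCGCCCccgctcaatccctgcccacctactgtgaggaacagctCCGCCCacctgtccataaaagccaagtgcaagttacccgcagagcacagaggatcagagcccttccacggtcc
*Col4a4*: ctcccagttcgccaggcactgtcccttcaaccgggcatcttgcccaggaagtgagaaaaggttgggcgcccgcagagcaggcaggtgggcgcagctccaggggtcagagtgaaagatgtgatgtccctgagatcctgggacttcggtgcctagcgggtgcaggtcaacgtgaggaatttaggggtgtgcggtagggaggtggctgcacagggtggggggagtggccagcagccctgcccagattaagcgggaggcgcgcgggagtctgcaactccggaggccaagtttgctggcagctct
*Col4a1*: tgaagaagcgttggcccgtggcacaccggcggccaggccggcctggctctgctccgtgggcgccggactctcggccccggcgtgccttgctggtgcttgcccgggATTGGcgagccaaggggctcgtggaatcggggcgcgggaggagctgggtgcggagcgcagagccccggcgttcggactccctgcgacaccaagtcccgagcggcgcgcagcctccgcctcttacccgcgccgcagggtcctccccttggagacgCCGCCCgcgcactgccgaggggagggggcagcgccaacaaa
*Col4a2*: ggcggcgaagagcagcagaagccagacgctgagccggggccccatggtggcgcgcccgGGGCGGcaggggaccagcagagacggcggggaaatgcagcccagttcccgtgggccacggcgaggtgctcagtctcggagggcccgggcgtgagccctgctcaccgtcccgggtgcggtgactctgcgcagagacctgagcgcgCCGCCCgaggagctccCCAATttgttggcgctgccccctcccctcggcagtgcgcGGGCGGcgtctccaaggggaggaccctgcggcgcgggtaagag
*Col9a1*, upstream start: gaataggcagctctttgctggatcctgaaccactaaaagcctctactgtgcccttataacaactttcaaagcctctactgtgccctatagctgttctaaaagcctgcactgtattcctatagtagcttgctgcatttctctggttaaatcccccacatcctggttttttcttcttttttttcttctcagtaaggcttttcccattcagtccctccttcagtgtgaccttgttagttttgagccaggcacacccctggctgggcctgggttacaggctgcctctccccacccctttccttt
*Col9a1*, downstream start: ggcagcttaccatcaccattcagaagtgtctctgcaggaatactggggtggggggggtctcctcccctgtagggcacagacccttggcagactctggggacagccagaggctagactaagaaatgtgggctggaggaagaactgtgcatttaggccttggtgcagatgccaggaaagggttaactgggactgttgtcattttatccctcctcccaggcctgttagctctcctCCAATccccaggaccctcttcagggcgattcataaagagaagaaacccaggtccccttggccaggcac

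RefSeq promoters were matched for 35 members (38 entries). GGGCGG was present in 60.5% of the member promoters, against 35.7% of all 32851 promoters of this length. CCAAT was present in 34.2% against 37.4%, TATAAA in 13.2% against 13.6%, and the MITF-type E-boxes CATGTG or CACGTG in 7.89% against 20.4%. TAATCC, the letters of the OTX2 core, was in 0 of the 38 and in 7.06% of all, CTGGCAC or CTGGTAC, letters of MYRF binding, in 7.89% against 7.1%, and ACAATGG or ACAAAGG, letters of SOX9 binding, in 5.26% against 9.28%. Both strands were searched and a match is a run of letters in this window and not a shown site. The upstream *Col9a1* window held no match and the downstream one a CCAAT 18 bases before the start. A shorter form of *Col9a1* from the downstream start is known in the eye, but counts at the 3' end do not tell the forms apart.

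With the classes used here, collagen transcripts were counted mostly in mesenchyme. Mesenchyme-like cells held 63.5% (63.1 to 63.8) of the collagen UMIs of the control and 70.0% (69.7 to 70.3) of those of the mutant library. Of all UMIs in kept cells they held 19653226 of 61244661 in control and 24789387 of 73404004 in mutant. In both libraries 22 of 44 members had over 50% of their UMIs in mesenchyme-like cells. The share of all genes that did so was not counted. The share of collagen UMIs depended on how cells were chosen and named. It was 10.5% and 3.22% with classes from the markers of each cell, and 5.47% and 5.83% at the study's limit of 2000 UMIs per cell. Members with over 50% of their UMIs in a single class, 29 in the main setting, then numbered 3 and 1. A class from the markers of each cell needed at least 3 detected markers, and more than from any other list. The mesenchyme list holds only 3, so a cell needed all 3 of them and fewer of every other list, which limits that share by rule. All members together reached 2779 CPM in control and 2589 CPM in mutant mesenchyme-like cells. The pericyte-like cells were richer, at 3325 CPM (3245 to 3406) in control and 2650 CPM (2581 to 2721) in mutant. In mutant their interval overlapped that of mesenchyme-like cells. Next in control came endothelial-like cells at 1967 and 1543 CPM and Schwann-like cells at 1890 and 1588 (only 22 and 38 cells), in reverse order in mutant. RPE-like cells stood at 1412 and 1173. Retinal progenitor-like cells were lower, at 659 and 607 CPM, macrophage-like cells were at 124 and 82.7, and red blood cell-like cells were lowest, at 50.8 and 57.5. Beside the mesenchyme members, 3 chains lay mainly in RPE-like cells in both libraries (*Col8a1*, *Col4a3*, *Col4a4*), 2 in retinal progenitor-like cells (*Col9a1*, *Col4a6*), 1 in endothelial-like cells (*Col15a1*) and 1 in Schwann-like cells (*Col20a1*).

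**Figure D1:**
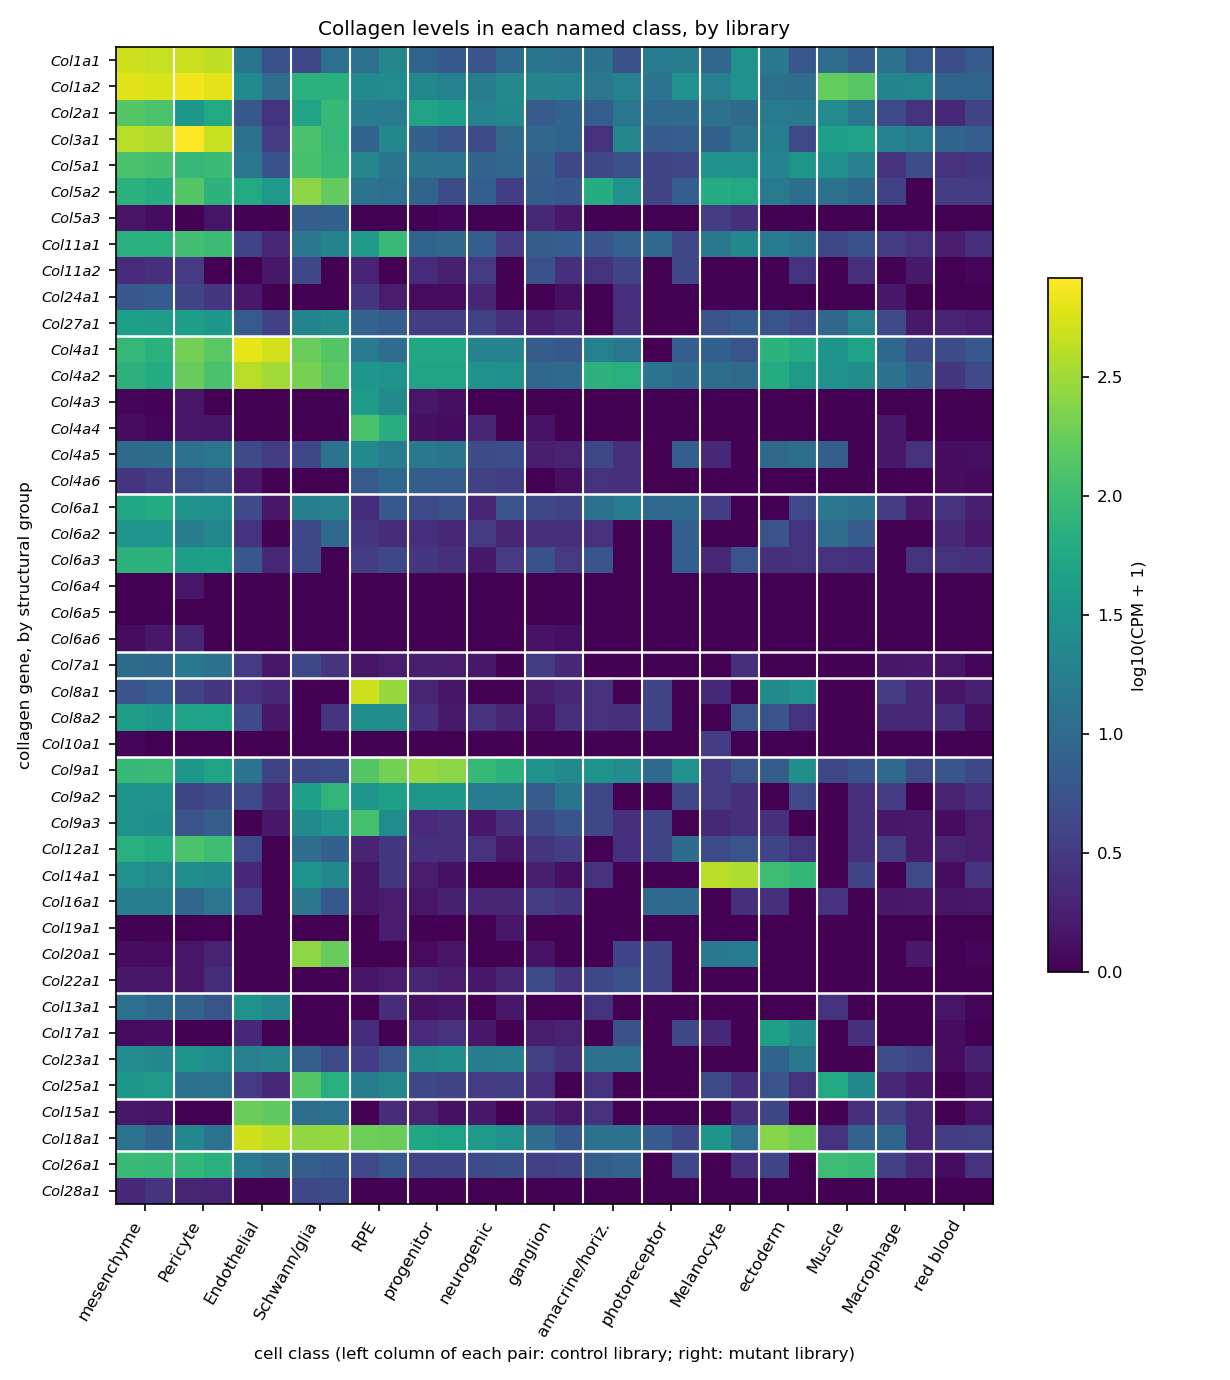
Levels of the 44 collagen genes (rows, by structural group) in each named class (column pairs, control left and mutant right) as log10 of CPM plus 1. The type I and III chains are brightest in mesenchyme and pericyte columns, *Col5a2* in Schwann columns, *Col4a1*, *Col4a2*, *Col15a1* and *Col18a1* in endothelial columns, *Col8a1* and *Col4a4* in RPE columns (509 and 118 CPM in control) and *Col9a1* in progenitor columns (281 CPM in control).

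The fibrillar group made up 70.2% of mesenchymal collagen UMIs in control and 69.8% in mutant. *Col1a2*, a chain of type I collagen, stood at 591 CPM (581 to 602) in control and 563 CPM (554 to 573) in mutant mesenchyme-like cells. *Col1a1*, its partner, stood at 510 and 454 CPM, and *Col3a1*, the type III chain of pliable tissue, at 401 and 370 CPM. The type I chains were therefore counted in near-equal numbers, with a log2 ratio of *Col1a1* to *Col1a2* of -0.21 in control and -0.31 in mutant, although the protein holds more α1 than α2 chains. *Col2a1*, the type II chain of vitreous and cartilage, was at 139 and 124 CPM in mesenchyme-like cells and at 49.1 and 42.2 CPM in retinal progenitor-like cells. *Col5a1* and *Col5a2* encode chains of type V collagen, which starts fibrils, and their ratio depended on the class. *Col5a1* was the more abundant in mesenchyme-like cells (log2 0.71 and 0.82), and *Col5a2* in endothelial-like cells (log2 of *Col5a1* over *Col5a2* -2.12 and -2.85). *Col11a1*, the type XI chain that nucleates cartilage and vitreous fibrils, exceeded *Col11a2* in mesenchyme-like cells by 5.72 and 5.56 on the log2 scale. *Col27a1* was at 42.9 and 42.2 CPM there, and *Col24a1* (121 and 165 UMIs in all) and *Col5a3* (16 and 16) were low everywhere.

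Among the mesenchymal members outside the fibrillar group, the beaded filament chains of type VI collagen were prominent. *Col6a3* stood at 72.8 CPM in control and 74.1 CPM in mutant mesenchyme-like cells, and *Col6a1* at 55.0 and 62.3 CPM. *Col6a1* exceeded *Col6a2* by 0.79 and 0.92 on the log2 scale, and *Col6a6* had only 8 and 15 UMIs in all cells. *Col26a1* stood at 96.6 and 87.8 CPM, *Col12a1*, a FACIT of dense connective tissue, at 65.5 and 61.7 CPM, and *Col16a1* at 16.9 and 17.3 CPM. *Col8a2*, a chain of the Descemet's membrane lattice, was at 41.4 and 34.9 CPM, and *Col7a1*, the anchoring fibril chain, at 9.77 and 8.63 CPM.

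Mesenchyme was not uniform. It comprised 6 clusters, and of 29 members compared, 19 differed by 2-fold or more between the highest and the lowest cluster while having the same highest cluster in both libraries. The count was 10 of 30 at a lower clustering resolution (4 clusters) and 17 of 29 at a higher one (7 clusters). The same count was not made over all genes, so it is not read as particular to collagens. Cluster 11, led by *Cldn11*, *Sox9* and *Bmper*, was highest in 2 of the type IX chains, with *Col9a1* at 235 CPM in control and 253 in mutant and *Col9a3* at 101 and 93.9 CPM, and the least *Col3a1*, at 124 and 80.0 CPM. Cluster 19, led by *Osr2*, *Foxl2* and *Eln*, was the opposite, with *Col3a1* at 675 and 897 CPM and *Col12a1* at only 6.4 and 10.9 CPM, which was at least 47.9 CPM in every other cluster. Cluster 2, led by *Nbl1*, *Twist2* and *Tfap2b*, was highest in *Col6a1* (111 and 115 CPM) and *Col7a1* (24.9 and 19.5 CPM). Cluster 9, led by *Pgf*, *Aldh1a2* and *Six2*, was highest in *Col13a1* (31.7 and 15.4 CPM) and *Col18a1* (35.4 and 20.3 CPM). Cluster 10, which carries the tendon markers *Scx* and *Meox1*, was high in *Col2a1*, at 236 and 170 CPM, beside cluster 11 at 244 and 238 CPM. The highest cluster was shared by both libraries for *Col9a1*, *Col9a3*, *Col6a1*, *Col7a1*, *Col13a1*, *Col18a1* and *Col2a1*, although levels differed. *Col3a1* was highest in cluster 9 in control and in cluster 19 in mutant, and *Col14a1* was highest in cluster 2 in control (58.9 against 27.7 CPM in cluster 19) and in cluster 19 in mutant (64.0 against 38.7 CPM in cluster 2).

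**Figure D2:**
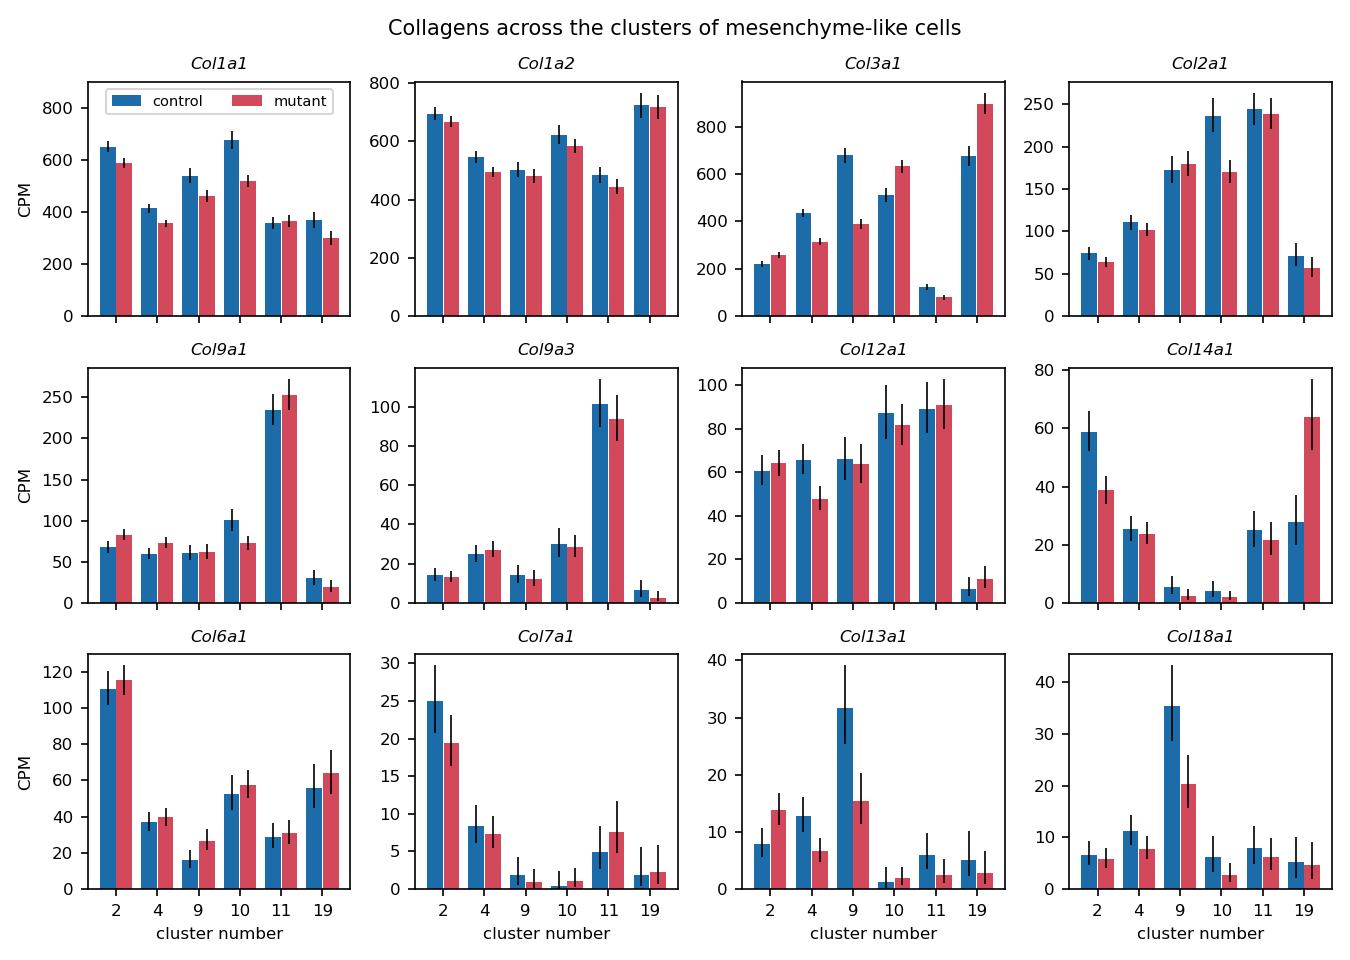
CPM (vertical axis) of 12 collagen genes in the 6 clusters of mesenchyme-like cells (horizontal axis), control in blue and mutant in red, with 95% counting intervals. *Col9a1* and *Col9a3* peak in cluster 11 in both libraries, and *Col12a1* is lowest in cluster 19.

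Of 34 members with at least 20 UMIs, 0 were lower and 0 higher by 2-fold or more in mutant, where 0.989% of all 13654 genes were lower and 0.608% higher by that fold. No p can be given with 1 library per genotype. The median log2 ratio of the members was -0.08, and that of all genes -0.04. In female cells alone 2 members were higher by that fold, at up to 2000 UMIs per cell 2 were lower and the median was -1.07, and 1 was lower by markers of each cell or with free RNA subtracted. The member furthest from 0 among those with 100 UMIs or more was *Col18a1*, the endostatin-bearing multiplexin, at 11.9 CPM in control and 7.75 in mutant (log2 -0.61, interval -0.90 to -0.33). *Col13a1* followed at 11.3 and 8.35 CPM (log2 -0.44), then *Col8a1* at 4.88 and 6.49 CPM (log2 0.40). *Col4a1*, *Col4a2* and *Col8a2* had log2 ratios of -0.28, -0.27 and -0.25. In female cells alone *Col13a1* and *Col4a1* were at 0.061 and 0.027, and in male cells alone *Col8a1* was at -0.45. Over 17 alternatives *Col18a1* ran from -3.24 to -0.007. The haemoglobin and other red blood cell markers summed to 612 CPM in control and 1951 CPM in mutant mesenchyme-like cells, the endothelial markers to 51.3 and 38.8 and the pericyte markers to 125 and 98.5, and their part in these ratios was not tested.

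RPE-like cells made a different set of collagens. The short chain network group held 37.9% of their collagen UMIs in control and 26.8% in mutant, FACITs 20.5% and 23.8%, the basement membrane group 16.6% and 13.1%, and fibrillar chains only 9.6% and 17.3%. *Col8a1*, which forms hexagonal lattices, was the leading member, with 1064 UMIs and 509 CPM (479 to 540) in control and 431 UMIs and 288 CPM (262 to 317) in mutant. The RPE-like cells held 85.6% of all *Col8a1* UMIs of the control and 66.3% of those of the mutant library. Its partner *Col8a2* was rare there, at 27.3 and 26.1 CPM, so *Col8a1* exceeded it by 4.2 and 3.43 on the log2 scale, whereas in mesenchyme-like cells *Col8a2* exceeded *Col8a1* (log2 of *Col8a1* over *Col8a2* -3.07 and -2.42). *Col4a4*, of the late basement membrane network, had 93.2% and 90.7% of its UMIs in RPE-like cells, at 118 and 64.9 CPM, and *Col4a3*, 71 bases away on chromosome 1 and read in the opposite direction, had 85.9% and 81.8%, at 37.8 and 24.1 CPM. *Col4a3* was counted less than *Col4a4* in both libraries (log2 -1.63 and -1.41). The general basement membrane pair was low, with *Col4a1* at 15.3 and 10.0 CPM and *Col4a2* at 33.5 and 29.4 CPM, and *Col4a2* exceeded *Col4a1* there (log2 of *Col4a1* over *Col4a2* -1.11 and -1.49), where endothelial-like cells had more *Col4a1* (0.66 and 0.68). *Col18a1* stood at 187 and 179 CPM.

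The part of each level that free RNA in the droplets could give was read from cells of the erythroid class, which are not known to make collagen. *Col8a1* had 4.22 and 2.80 UMIs per RPE-like cell but 0.00952 and 0.0184 per red blood cell-like cell. *Col1a2* had 0.194 and 0.240 UMIs per RPE-like cell and 0.157 and 0.164 per red blood cell-like cell, and *Col3a1* had 0.0635 and 0.208 against 0.157 and 0.137. Of the 21 members with at least 20 UMIs there, 4 (*Col1a1*, *Col1a2*, *Col3a1*, *Col4a1*) were at no more than 2 times the red blood cell level in both libraries. For *Col3a1* this level rested on few cells, since 63.6% of its control and 40.3% of its mutant UMIs in red blood cell-like cells lay in 1 cell of each library, and for *Col4a1* 44.4% did in mutant. The ratios of the type I and III chains between libraries are given below as values only. Median depths were 4396 and 3738 UMIs in RPE-like and 22426.5 and 22706 in red blood cell-like cells.

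By CPM *Myrf* was highest in RPE-like cells in both libraries, although in mutant more of its UMIs (53) lay in mesenchyme-like than in RPE-like cells (30). The comparison of genotypes asked which of their collagens differ. Of 21 members with at least 20 UMIs in RPE-like cells, 1 was lower and 2 were higher by 2-fold or more in mutant, where 3.20% of all 9720 genes were lower and 1.92% higher by that fold. As a mean over cells, 4 were lower and 5 higher, in a count not limited to these 21. Of the 21, only *Col11a1* (log2 1.53) and *Col1a1* (1.33) were higher by that fold as a mean over cells. Those lower by that fold were *Col9a3* (-2.04), *Col4a1* (-1.98), *Col4a5* (-1.41) and *Col4a6* (-1.01). The median log2 ratio of the members was -0.06, beside -0.03 for all genes. These cells had fewer RPE markers in mutant, with the list at 9630 CPM in control and 6332 in mutant. The neurogenic list stood at 231 and 487 CPM, of which *Atoh7* held 110 and 359, and 3 of its 6 markers were above 0. The tendon markers stood at 9.08 and 26.1 CPM, the cartilage markers, mostly *Sox9*, at 144 and 77.6, the red blood cell markers at 925 and 1494 and the mesenchyme markers at 33.9 and 20.7. The part of these shifts in the collagen ratios was not tested, and fewer transcripts per cell cannot be told apart from fewer expressing cells in a class sum.

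The lowest ratio was that of *Col9a3* (ENSMUSG00000027570, chr2:180597790-180622189, plus strand, 33 exons), a chain of the type IX FACIT. It had 240 UMIs and 115 CPM (101 to 130) in control and 38 UMIs and 25.4 CPM (18.0 to 34.9) in mutant, a log2 ratio of -2.14 (-2.71 to -1.68). The intervals did not overlap, and the ratio stayed between -2.27 and -1.44 under the 16 alternative settings. *Col9a3* UMIs were found in 81 of 252 control cells (32.1%, exact Clopper-Pearson interval 26.4 to 38.3) and 26 of 154 mutant cells (16.9%, 11.3 to 23.8), and in 28.8% and 7.50% after thinning each cell to 3000 UMIs, which left out 120 and 74 shallower cells. In red blood cell-like cells the unthinned share was 0.476% and 1.02%. Of its partner chains, *Col9a1* stood at 139 and 202 CPM (log2 0.54, 0.30 to 0.77) and *Col9a2* at 33.0 and 46.1 CPM (log2 0.48, -0.02 to 0.99). At up to 5% mitochondrial UMIs both were lower in mutant, at -0.33 and -0.23, and *Col9a2* was also below 0 in male cells alone. The log2 ratio of *Col9a1* to *Col9a3* was thus 0.28 in control and 2.96 in mutant RPE-like cells, while in mesenchyme-like cells it was 1.54 and 1.73. The control ratio was -0.58 at up to 20000 UMIs per cell and -2.67 with classes from the markers of each cell, where that of the mutant was 2.27 and 0.56. The ratios of control and mutant lay closer together at up to 5% mitochondrial UMIs, at 2.63 and 3.74, and at up to 2000 UMIs per cell, at 1.17 and 1.58. The *Col9a1* UMIs were unevenly spread, in 21.4% and 25.3% of RPE-like cells with up to 57 and 46 in 1 cell.

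*Col11a1* (ENSMUSG00000027966, chr3:114030540-114220718, plus strand, 67 exons) was higher in mutant. It had 75 UMIs and 35.9 CPM (28.2 to 45) in control and 137 UMIs and 91.6 CPM (76.9 to 108) in mutant, a log2 ratio of 1.34 (0.94 to 1.78) that ranged from 0.87 to 2.04 over the alternatives. A *Col11a1* UMI was found in 19.8% (15.1 to 25.3) of the control cells and 39.6% (31.8 to 47.8) of the mutant cells of this class, and 6.82% and 20% after thinning, against 0.952% and 2.66% unthinned in red blood cell-like cells. The other member past the fold was *Col3a1* (16 and 32 UMIs, 7.65 and 21.4 CPM, log2 1.44), which was at 0.11 without the removal of doublets. *Col1a1* (23 and 30 UMIs, log2 0.85) was at 0.09 without that removal and had 36.7% of its mutant UMIs in a single cell.

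Several RPE chains were lower in mutant by less than 2-fold. *Col8a1* had a log2 ratio of -0.82 (-0.98 to -0.66), *Col4a4* of -0.86 (-1.22 to -0.52) and *Col4a3* of -0.63 (-1.26 to -0.06). The intervals of this neighbouring pair lay below 0, but *Col4a3* was at 0.015 with classes from the markers of each cell. *Col5a1* had -0.62, *Col4a1* -0.56 and *Col4a5* -0.54, each with an interval that included 0. As a mean over cells these were at 0.31, -1.98 and -1.41. *Col18a1* had -0.06 (-0.29 to 0.17) and *Col8a2* -0.05 (-0.69 to 0.55), and the remaining members, *Col4a2*, *Col5a2*, *Col27a1*, *Col2a1*, *Col1a2*, *Col25a1* and *Col4a6*, lay between -0.19 and 0.59 with intervals that included 0. For *Col4a6*, with 12 and 13 UMIs, the interval ran from -0.65 to 1.86, so a 2-fold difference was not detectable at this depth. Its ratio was -1.01 as a mean over cells.

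**Figure D3:**
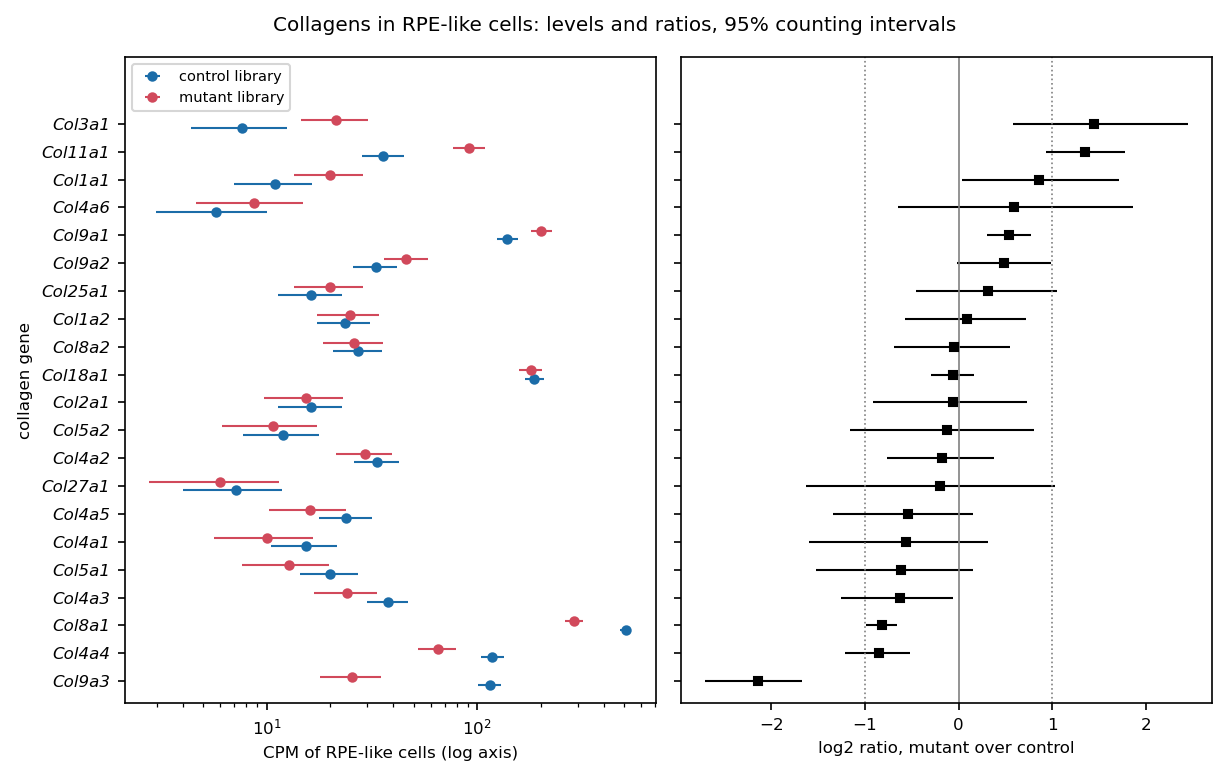
Left, CPM (log axis) of the 21 collagen genes with at least 20 UMIs in RPE-like cells, control in blue and mutant in red. Right, the log2 ratio of mutant over control, with 95% counting intervals and dotted lines at a fold of 2. *Col9a3* lies lowest at -2.14, and *Col11a1* at 1.34 and *Col3a1* at 1.44 lie highest.

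The RPE-like class was mixed in depth, and the ratios were read within parts of it. Cells with 5000 UMIs or more (124 control, 72 mutant) held 1917203 of the 2091405 control and 1370192 of the 1495703 mutant UMIs, so their values are close to those of the class by construction, with *Col8a1* at 529 and 305 CPM, *Col4a4* at 123 and 67.9, *Col9a3* at 122 and 25.5, *Col9a1* at 142 and 213 and *Col11a1* at 36.0 and 87.6 CPM. In cells with fewer UMIs (128 and 82), *Col8a1* stood at 281 and 104 CPM and *Col11a1* at 34.4 and 135, while *Col9a3* had only 6 and 3 UMIs. In cells over 5% mitochondrial UMIs (148 and 68), *Col8a1* stood at 609 and 368 CPM, *Col4a4* at 137 and 78.1 and *Col9a1* at 69.9 and 142. In cells up to 5% (104 and 86), *Col8a1* was at 243 and 214 CPM (log2 -0.18), *Col4a4* at 69.5 and 52.6 (log2 -0.40) and *Col9a1* at 322 and 257 (log2 -0.33), so the first 2 ratios shrank and that of *Col9a1* turned. *Col9a3*, at 50.4 and 18.0 CPM, and *Col11a1*, at 43.5 and 98.9 CPM, kept their directions there. The cells up to 5% also had less *Ttr*, at 949 and 98.9 CPM against 2994 and 1494 in the others, and more *Atoh7*, at 297 and 652 CPM against 38.9 and 40.5.

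**Figure D4:**
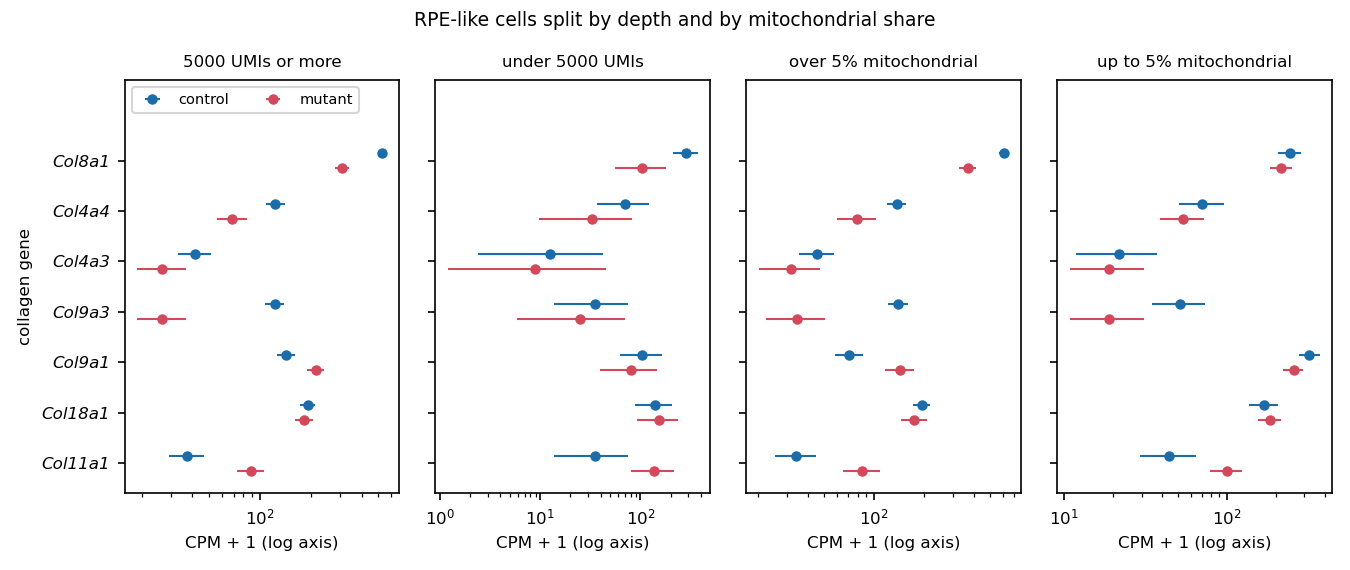
CPM plus 1 (log axes) of 7 collagen genes in RPE-like cells split by UMIs per cell and by mitochondrial share, control in blue and mutant in red, with 95% counting intervals. *Col9a3* is lower and *Col11a1* higher in mutant in each of the 4 panels, although the intervals of *Col9a3* overlap below 5000 UMIs, while *Col8a1* and *Col4a4* come close together, and *Col9a1* turns, in cells up to 5% mitochondrial.

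The endothelial-like cells (143 control, 149 mutant) carried the vascular set. *Col4a1*, which with *Col4a2* forms the basement membrane of all vessels, stood at 634 CPM (598 to 673) in control and 515 CPM (482 to 549) in mutant. *Col4a2* stood at 400 and 321 CPM, *Col18a1* at 509 and 421 CPM, and *Col15a1*, the other multiplexin, at 181 and 160 CPM with 86.6% and 88.1% of all its UMIs. The basement membrane group made up 52.8% and 54.3% and the multiplexins 35.0% and 37.7% of endothelial collagen UMIs. Fibrillar chains took less in mutant, at 6.77% and 4.07%, as did FACITs at 1.13% and 0.288% and beaded filament chains at 0.521% and 0.108%. Transmembrane chains stood at 2.61% and 2.70%. The pair *Col4a1* and *Col4a2*, which start head to head on chromosome 8, had similar ratios in both libraries, at log2 0.66 and 0.68 in endothelial-like, 0.21 and 0.20 in mesenchyme-like and 0.15 and 0.15 in retinal progenitor-like cells. At up to 20000 UMIs per cell the endothelial ratio was 0.52 and 0.16.

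Of 13 members with at least 20 UMIs in endothelial-like cells, 12 were below 0 in mutant, as were 59.1% of all genes, and 5 were lower and 0 higher by 2-fold or more, where 2.09% of all 8658 genes were lower and 0.762% higher by that fold. The median of the members was -0.54, beside -0.06 for all genes. The vascular chains accounted for the smaller ratios, with log2 -0.30 for *Col4a1*, -0.32 for *Col4a2*, -0.27 for *Col18a1* and -0.17 for *Col15a1*. *Col5a2* stood at 58.7 and 35.5 CPM (log2 -0.71). The 5 past the fold were chains of other classes at low counts: *Col3a1* (19 and 4 UMIs), *Col9a1* (21 and 5), *Col5a1* (23 and 8), *Col1a1* (22 and 8) and *Col1a2* (42 and 18). In the same cells the mesenchyme markers stood at 26.2 and 7.78 CPM and the progenitor markers at 334 and 195, while the endothelial markers stood at 2839 and 2921 CPM, and the part of such cells or RNA was not tested. The count past the fold was 2 without the 25 and 22 cells that held 3 or more markers of another class, 1 at a minimum of 50 UMIs, with free RNA subtracted, at up to 20000 UMIs per cell or by markers of each cell, and 0 in male cells alone. In mutant, 4 of the 5 were below their level per red blood cell-like cell, with *Col3a1* at 0.0268 UMIs per cell against 0.137, *Col9a1* at 0.0336 against 0.0695, *Col1a1* at 0.0537 against 0.125 and *Col1a2* at 0.121 against 0.164.

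In pericyte-like cells the fibrillar group made up 73.0% and 71.3% of collagen UMIs. *Col3a1* was the most abundant member in control, at 823 CPM (784 to 864), and stood at 463 CPM (435 to 493) in mutant, a log2 ratio of -0.83 (-0.95 to -0.71) that ranged from -1.06 to -0.62 over the 14 alternatives that gave a value. *Col5a2* stood at 139 and 76.3 CPM (log2 -0.86), *Col4a2* at 174 and 118 (log2 -0.56) and *Col4a1* at 199 and 148 (log2 -0.43). *Col2a1*, at 34.8 and 57.7 CPM (log2 0.72), and *Col9a1*, at 34.3 and 49.1 CPM (log2 0.51), lay on the other side. Of 26 members, 0 were past the fold in either direction, where 1.43% of all 9508 genes were lower and 0.999% higher. Of the members, 3 were lower by that fold in female cells alone, 2 in male cells alone and 2 as a mean over cells. The shares of all genes at these settings were not counted, so nothing is read from these counts. The median of the members was -0.17, beside -0.05 for all genes. *Tfap2b* stood at 408 and 272 CPM and *Pdgfrb* at 193 and 132 CPM in the same cells. The whole pericyte list stood at 267 and 233 CPM, and 5 of its 7 markers were higher in mutant, such as *Rgs5* at 8.1 and 16.2. The part of these markers was not tested. No pericyte-like cluster was found without doublet removal, at resolution 0.4 or by markers of each cell, and *Col4a1* and *Col4a2* were at 0.47 and 0.32 in female cells alone, and *Col9a1* at -0.39 in male cells alone.

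In retinal progenitor-like cells (1652 control, 1747 mutant), FACITs made up 48.6% and 48.3% of collagen UMIs, most of them *Col9a1*, whose protein is a component of the vitreous. *Col9a1* stood at 281 CPM (274 to 289) in control and 254 CPM (247 to 261) in mutant (log2 -0.15), and 67.5% and 60.7% of all its UMIs lay there. Its partners were far lower, with *Col9a1* over *Col9a2* by 3.06 and 2.90 and over *Col9a3* by 7.76 and 7.39 on the log2 scale, against 0.28 for the latter in control RPE-like cells. *Col4a6*, which shares a head-to-head pair with *Col4a5* on the X chromosome, had 62.6% and 54.9% of its UMIs in progenitors. *Col23a1*, a transmembrane collagen, stood at 22.9 and 27.4 CPM (log2 0.26). Of 32 members, 4 were lower and 0 higher by 2-fold or more, where 0.830% of all 12890 genes were lower and 0.458% higher. The 4 were *Col5a2* (7.67 and 3.66 CPM, log2 -1.06) and, with 29 UMIs or fewer in a library, *Col15a1*, *Col8a2* and *Col8a1*, and the count was 1 at a minimum of 50 UMIs, 1 in female cells alone and 0 in male cells alone. In the same cells the RPE markers summed to 20.4 CPM in control and 9.35 in mutant, the mesenchyme markers to 17.1 and 12.4 and the red blood cell markers to 466 and 3123, and their part in these ratios was not tested. *Col1a1* and *Col3a1* had log2 ratios of -0.55 and -0.53 at 150 and 101, and 130 and 89 UMIs. Per cell *Col1a1* had 0.0908 and 0.0578 UMIs, against 0.0810 and 0.125 per red blood cell-like cell. *Col3a1* had 0.0787 and 0.0509 against 0.157 and 0.137, and its ratio was 0.011 with free RNA subtracted. *Col5a2* had 0.0896 and 0.0401 against 0.0476 and 0.0491, so its mutant level was below that background, and its ratio was 0.94 at up to 2000 UMIs per cell. The median of the members was -0.15, beside -0.02 for all genes.

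**Figure D5:**
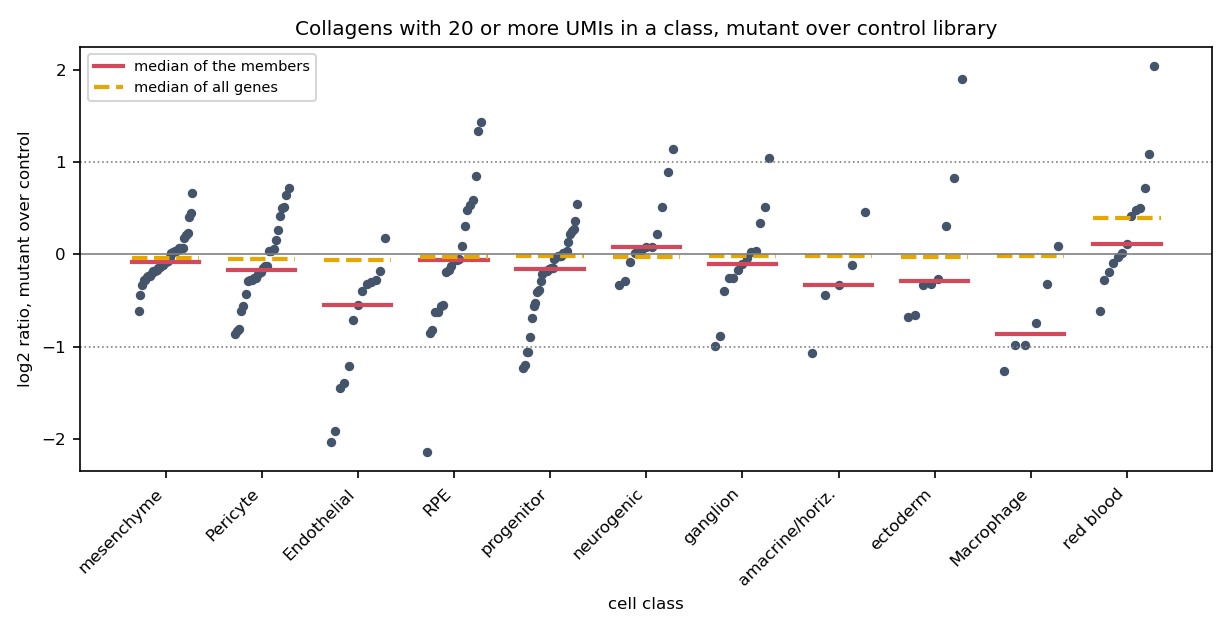
Log2 ratio of mutant over control (vertical axis) of each collagen gene with at least 20 UMIs in a class (points), with the median of the members (red line) and of all genes (dashed line). The medians lie close together in mesenchyme (-0.08 and -0.04) and RPE (-0.06 and -0.03) and apart in endothelial-like cells (-0.54 and -0.06).

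In the remaining classes few members had 20 UMIs. In neurogenic precursor-like cells 0 of 11 were lower and 1 was higher by 2-fold or more (*Col3a1*, 7 and 18 UMIs). There 1.64% of all genes were lower and 0.726% higher. The red blood cell markers of these cells stood at 12421 and 808 CPM, and their part was not tested. In ganglion cell-like cells 0 of 13 were lower and 1 was higher (*Col9a2*, 16 and 43 UMIs), where 0.987% were lower and 0.758% higher. The red blood cell markers of these cells stood at 13214 and 2470 CPM and the macrophage markers at 1.48 and 10.9, and their part was not tested. In amacrine- or horizontal-like cells 1 of 5 was lower (*Col5a2*, 38 and 20 UMIs), where 1.99% were lower and 1.89% higher. The neurogenic markers of that class stood at 3302 and 1859 CPM, the ganglion cell markers at 100 and 324 and the ciliary margin markers at 74.0 and 26.1, and their part was not tested. In surface ectoderm-like cells 0 of 8 were lower and 1 was higher (*Col9a1*, 4 and 16 UMIs), where 3.15% were lower and 2.15% higher. In macrophage-like cells 1 of 6 was lower (*Col9a1*, 16 and 6 UMIs), where 2.30% were lower and 2.18% higher. In red blood cell-like cells 0 of 13 were lower and 2 were higher (*Col14a1* and *Col2a1*), where 1.15% were lower and 12.3% higher and the median of all genes was itself at 0.39. Each of these members had 50 UMIs or fewer in either library.

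A few members marked small classes. *Col20a1*, a FACIT, had 73.4% of its control and 77.2% of its mutant UMIs in Schwann-like cells, at 264 and 173 CPM. *Col25a1*, a transmembrane collagen of axons and muscle, reached 135 and 68.9 CPM in the same cells. *Col14a1*, a FACIT of fibril surfaces, was highest in melanocyte-like cells (44 control, 34 mutant), at 398 and 369 CPM, and next in surface ectoderm-like cells, at 101 and 83.5 CPM. *Col17a1*, the hemidesmosome collagen of epithelia, was highest in surface ectoderm-like cells, at 44.9 and 27.3 CPM, and *Col18a1* stood at 245 and 196 CPM there. *Col26a1* was as high in muscle-like cells, at 101 and 94.7 CPM, as in mesenchyme. These class peaks were the same in both libraries, but the Schwann-, melanocyte- and muscle-like classes had fewer than 50 cells in a library and were not compared between genotypes.

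The genes that make, fold, cut and crosslink collagens, and collagen receptors, were a list of 44. In RPE-like cells 24 had at least 20 UMIs, of which 0 were lower and 0 higher by 2-fold or more, where 3.20% of all genes were lower and 1.92% higher, 12 lay below and 12 above 0 beside 54.1% of all genes below 0, and the median was -0.00. *Serpinh1*, the collagen chaperone, stood at 629 and 618 CPM, *Ppib*, a prolyl isomerase, at 619 and 659, and *Sparc*, a matrix protein that binds collagen, at 1298 and 1236. The largest ratios with at least 50 UMIs were those of the lysyl hydroxylases *Plod2* (log2 0.77), *Plod1* (-0.63) and *Plod3* (-0.56), then *P3h4* (-0.43), *Loxl1* (-0.43) and the prolyl hydroxylase subunit *P4ha2* (0.27). In mesenchyme-like cells 37 were counted, 29 below and 8 above 0 beside 60.4% of all genes below 0, with 0 past the fold, where 0.989% of all genes were lower and 0.608% higher, and a median of -0.09. In endothelial-like cells 2 of 23 were lower (*Fkbp14*, 25 and 10 UMIs, and *Mia3*, 44 and 22) and 0 higher, where 2.09% were lower and 0.762% higher. In pericyte-like cells 0 of 29 were lower and 1 was higher (*Itga1*, 11 and 28 UMIs), where 1.43% were lower and 0.999% higher. In ganglion cell-like cells 1 of 19 was lower (*Loxl2*, 24 and 13 UMIs) and 0 were higher, where 0.987% were lower and 0.758% higher. In each of the other 6 classes compared 0 were past the fold.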

How the data were processed

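Single cells of e13.5 eye cups were measured in 2 libraries, 1 per genotype, each of 3 pooled samples. The authors deposited raw UMI counts per gene and barcode, made with Cell Ranger 7.1.0 on mm10 according to the submitters' processing notes, which also name Seurat 4.1.1. Whether intronic reads were counted is not given in the sources used here. The depth was 63483835 UMIs in control and 75228861 in mutant, over 6039 and 6754 barcodes with medians of 10083 and 10638 UMIs.

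Barcodes under 200 genes or over 15% mitochondrial UMIs, and doublets marked per library with Scrublet (scanpy 1.11.5, expected rate 5%; 68 and 65 cells), were left out. The maximum of 2000 UMIs per cell in the study's methods would keep 1181 and 1099 cells, and was tried as an alternative. Libraries were integrated and clustered in Seurat 5.3.0 under R 4.3.3 with 1972 of 2000 variable features (collagens and collagen processing genes left out), 30 principal components and resolution 0.8. Clusters were named X-like from fixed markers, with thresholds set after the clusters were seen, and 750 control and 678 mutant cells stayed unnamed. UMIs were summed per class and library in Python with scipy 1.17.1. CPM have exact Poisson intervals. Log2 ratios have 1 UMI added to each sum and exact conditional binomial intervals, and genes below 20 UMIs over both libraries were not counted. Genotypes were compared in classes with at least 50 cells in each library. Only the log2 ratios and their intervals were tested on simulated counts, drawn for the RPE-like class without uneven spread of UMIs between cells. Filtering, doublet removal, clustering and naming were not tested in this way.

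The members and lists were chosen with earlier results of these data known. Named were, by rule, the most abundant members of each structural group and those with over 50% of UMIs in 1 class, in RPE-like cells all members with at least 20 UMIs, in other classes up to 6 with at least 100 UMIs and the largest ratios, and up to 6 processing genes with at least 50 UMIs. Members named for clusters, small classes or counts past the fold were chosen after their values were seen. Cells were called female by *Xist* or male by Y-linked UMIs, and the pools differed in sex, with 1959 female and 1139 male cells in control and 1562 and 1765 in mutant. Gene positions are from the GENCODE annotation of GRCm38, the assembly of mm10, and promoters from RefSeq (GRCm38.p6). *Col12a1*, *Col14a1*, *Col1a1*, *Col22a1*, *Col26a1*, *Col2a1*, *Col4a3*, *Col5a2* and *Col9a3* had no entry.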

Additional observations from a re-analysis of the deposited data

Results flagged for a closer look

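Some members lay on opposite sides of 0 in 2 classes, with mutant above control in 1 class and below it in the other. Each value below had a counting interval clear of 0. With 1 library per genotype these differences between classes were not tested. *Col9a1* had log2 ratios of 0.54 in RPE-like, 0.51 in pericyte-like and 1.90 in surface ectoderm-like cells, and of -0.15 in retinal progenitor-like and -1.91 in endothelial-like cells. The pericyte-like value was -0.39 in male cells alone, the RPE-like value -0.33 at up to 5% mitochondrial UMIs, and the surface ectoderm-like value rests on 4 and 16 UMIs, which reached the minimum of 20 through the mutant. *Col3a1* was at 1.44 in RPE-like cells and at -0.11 in mesenchyme-like, -0.53 in retinal progenitor-like, -0.83 in pericyte-like and -2.04 in endothelial-like cells. *Col1a1* was at 0.85 in RPE-like cells and at -0.17 in mesenchyme-like, -0.55 in retinal progenitor-like and -1.39 in endothelial-like cells. In RPE-like cells *Col3a1* and *Col1a1* were at no more than 2 times the level per red blood cell-like cell and without doublet removal their ratios were 0.11 and 0.09. *Col3a1* was below that level in progenitor-like and endothelial-like cells of both libraries, and at 0.011 in progenitor-like cells with free RNA subtracted. *Col8a1* was at -0.82 in RPE-like and 0.40 in mesenchyme-like cells. Its mesenchyme-like value was -0.45 in male cells alone and -0.24 at up to 2000 UMIs per cell. *Col2a1* was at 0.72 in pericyte-like, -0.17 in mesenchyme-like and -0.22 in retinal progenitor-like cells. *Col23a1* was at 0.26 in retinal progenitor-like (-0.058 at up to 2000 UMIs per cell) and -0.23 in mesenchyme-like cells. *Col14a1* was at 2.04 in red blood cell-like cells (1 and 19 UMIs) and -0.23 in mesenchyme-like cells. The red blood cell-like value reached the minimum of 20 UMIs through the mutant, in a class where the median of all genes was 0.39, and nothing is read from it.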

How the results depend on the processing

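No paired analysis was possible because there was 1 library per genotype. Of the single-member values given with alternatives, 723 stayed within the counting interval, 103 moved and 17 turned. Each of the 17 had a main interval clear of 0. Members whose interval included 0 also changed sign and are not among the 17, such as *Col9a2* in RPE-like cells (0.48, and -0.23 at 5% mitochondrial). Of the summary values 300 stayed, 70 moved and 2 turned. The cause of a move or turn was not tested for any value. Main values stand first below. The share of collagen UMIs in mesenchyme-like cells (63.5% and 70.0%) was 62.9% in control without doublet removal and 62.9% without integration, 71.1% and 76.0% at resolution 0.4, 58.8% and 63.0% at resolution 1.6, 65.7% and 72.9% with free RNA subtracted, 67.4% and 74.3% at up to 20000 UMIs per cell, 63.0% and 64.6% at up to 5% mitochondrial UMIs, 63.9% and 70.3% without shared barcodes (added after seeing the data), 10.5% and 3.22% with classes from the markers of each cell, and 5.47% and 5.83% at up to 2000 UMIs. Members over 50% in 1 class (29) were 3 by markers of each cell and 1 at up to 2000 UMIs. By markers of each cell, a mesenchyme-like cell needed all 3 markers of its list, which limits the values of that setting by rule. Members highest in mesenchyme among classes of at least 50 cells (11) were 7 at 5% mitochondrial and 4 at up to 2000 UMIs. The alternatives took in classes of at least 20 cells, so these counts may cover different sets of classes. Members 2-fold apart between mesenchyme-like clusters (19) were 10 at resolution 0.4.

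Members lower by 2-fold or more in RPE-like cells (1) were 4 as a mean over cells and 0 at up to 2000 UMIs. Those higher (2) were 5 as a mean over cells, a count not limited to the 21 members with at least 20 UMIs. They were 1 at a minimum of 50 UMIs, with free RNA subtracted, at 5% mitochondrial and without doublet removal. At up to 2000 UMIs there were 0. In endothelial-like cells those lower (5) were 1 at 50 UMIs, by markers of each cell, with free RNA subtracted and at up to 20000 UMIs, 2 without the top cell of each gene and without cells of mixed markers (added after seeing the data), 3 at up to 2000 UMIs and 0 in male cells, and those higher (0) were 2 as a mean over cells. In progenitor-like cells those lower (4) were 1 at 50 UMIs and in female cells, 2 at 5% mitochondrial, and 0 in male cells and at up to 2000 UMIs, and those higher (0) were 1 with free RNA subtracted and without integration. In pericyte-like cells those lower (0) were 3 in female cells, 2 in male cells and as a mean over cells, and 1 with free RNA subtracted and at 5% mitochondrial. In mesenchyme-like cells those lower (0) were 1 by markers of each cell and with free RNA subtracted and 2 at up to 2000 UMIs, and those higher (0) were 2 in female cells. At up to 2000 UMIs the median of the members was -1.07 in mesenchyme-like and -1.63 in endothelial-like cells. In every class the share of all genes past the fold was counted at the main setting only.

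The log2 ratio of *Col9a1* to *Col9a3* in RPE-like cells (0.28 in control, 2.96 in mutant) was 2.63 and 3.74 at 5% mitochondrial, 1.17 and 1.58 at up to 2000 UMIs, -0.58 and 2.27 at up to 20000 UMIs, and -2.67 and 0.56 by markers of each cell. That of *Col8a1* to *Col8a2* (4.2, 3.43) was 3.82 and 2.87 at 5% mitochondrial and 2.38 and 1.58 at up to 2000 UMIs, and that of *Col4a1* to *Col4a2* in endothelial-like cells (0.66, 0.68) was 0.52 and 0.16 at up to 20000 UMIs. The single members that turned in mutant over control are given for those with a main interval clear of 0. At up to 2000 UMIs they were *Col9a1* at -1.03 and *Col3a1* at -0.18 in RPE-like cells. At that limit *Col13a1* was at 0.76 and *Col8a1* at -0.24 in mesenchyme-like cells. In progenitor-like cells *Col5a2* was at 0.94, *Col23a1* at -0.058 and *Col2a1* at 0.080 at the same limit. By markers of each cell *Col4a3* was at 0.015 and *Col1a1* at -1.11 in RPE-like cells, and at 5% mitochondrial *Col9a1* was at -0.33 there. In female cells *Col13a1* and *Col4a1* were at 0.061 and 0.027 in mesenchyme-like, and *Col4a2* and *Col4a1* at 0.32 and 0.47 in pericyte-like cells. In male cells *Col8a1* was at -0.45 in mesenchyme-like and *Col9a1* at -0.39 in pericyte-like cells. With free RNA subtracted *Col3a1* was at 0.011 in progenitor-like cells. No pericyte-like value was had without doublet removal, at resolution 0.4, at up to 2000 UMIs or by markers of each cell, and no RPE-like or endothelial-like value in female cells, which numbered under 20 in a library. Depth limits the chains with few UMIs in a class, and no setting stands in for a second library.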

Other observations

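The other retinal classes held few collagens. In neurogenic precursor-like cells *Col9a1* stood at 89.4 CPM in control and 73.1 in mutant and *Col18a1* at 36.9 and 29.2, and in ganglion cell-like cells *Col9a1* stood at 30.7 and 23.3 CPM. Among neurons *Col4a2* reached 74.0 and 68.2 CPM and *Col5a2* 62.5 and 29.0 CPM in amacrine- or horizontal-like cells (55 control, 66 mutant). *Col5a2* was highest of all in Schwann-like cells, at 254 and 163 CPM.

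Besides the head-to-head pairs, *Col3a1* and *Col5a2* lie tail to tail on chromosome 1 with 24614 bases between them.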
